A study of Mus musculus with 8 samples.

Results

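Epithelial cells are held together and sealed by tight junctions, adherens junctions and desmosomes and are coupled by gap junctions, and the genes for the parts of these junctions were examined here. Members were the genes of the raw count table whose symbol named a claudin, a tight junction plaque or JAM-family protein, a cadherin, a catenin, a nectin, a desmosomal protein, a connexin, a Par-complex protein, Crb3 or Epcam. The table listed 15288 genes, and 67 of them matched. They comprised 20 tight junction, 21 adherens junction, 9 desmosome, 10 gap junction and 6 polarity genes, together with Epcam.

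The cells were IMCD, a mouse kidney line named for the inner medullary collecting duct, the last stretch of the renal tubule, where the fluid around the cells can become strongly hypertonic. They were grown in serum-supplemented DMEM to about 90% confluence and then held for 12 h in DMEM free of FBS. The control group (4 libraries) received no added NaCl, and the NaCl group (4 libraries) received 100 mmol NaCl, an amount the labels give without a volume. Both groups therefore shared the serum-free medium, and the labels do not say whether the libraries came from separate cultures, so the p-values below measure the spread between these libraries, which may be technical. Replicates keep the library numbers of the labels, 1 to 4 for control and 5 to 8 for NaCl.

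Tight junctions form a belt near the apical side of the cell. Claudins are their membrane-spanning strands and set which ions pass between cells, while ZO proteins (such as Tjp1 and Tjp3), cingulin (Cgn) and paracingulin (Cgnl1) form the plaque that ties the strands to actin. Adherens junctions join cells through cadherins, whose tails bind catenins, and desmosomes join them through desmosomal cadherins, plakoglobin, plakophilins and desmoplakin, which anchor keratin filaments. Connexins form the channels of gap junctions. In the collecting duct these contacts carry a steep difference in salt concentration across a single layer of cells.

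Library totals lay between 35.29 and 47.57 M counts, and every pair of replicates differed by more than sampling noise. Levels below are CPM, the usual count scale relative to library size, on totals scaled by TMM, a factor that balances library composition. Fold changes are NaCl over control on the log2 scale from edgeR's quasi-likelihood test, and a gene was called at a Benjamini-Hochberg adjusted p-value under 0.05 over the 14024 genes tested. Of 12 markers of collecting duct principal cells, 11 were in the table and Elf5 was not. Their summed level was 646 to 815 CPM in control and 1401 to 1569 CPM in NaCl libraries, and most of it was Cdh16, itself a junction gene. Of the 8 tested, 2 rose (Cdh16 and Avpr2, the latter under 1 CPM in both group means) and 3 fell (Hoxb7, Gata3 and Scnn1g, log2 −0.25, −0.44 and −0.84). Hoxb7 was at 71.4 and 60.2 CPM in the control and NaCl groups, and the water channel gene Aqp2 was at 0.0241 and 0.305 CPM. Of other tubule markers, proximal Lrp2 was at 185 and 162 CPM and was not called, intercalated Atp6v0d2 fell from 1.84 to 0.326 CPM (log2 −2.48) with the other 4 of its list not in the table, and Umod and Slc12a1 of the thick ascending limb were under 2 CPM in both group means and not called. All 6 fibroblast markers were present (1 rose, 2 fell), at 3128 to 3635 CPM in control and 2820 to 3254 CPM in NaCl libraries, with Col1a1 holding most. The endothelial list was reduced to Cdh5, at under 1 CPM, and of 3 leukocyte markers Ptprc rose (4.06 and 13.5 CPM), Cd68 was not called (2.41 and 1.69 CPM, adjusted p = 0.057) and Lyz2 was not in the table. In bulk RNA, fewer cells of a type and less RNA per cell cannot be told apart, and the part of these other markers in the results was not tested.

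Junction genes moved in both directions under NaCl. The expression filter, which asks for enough counts in as many libraries as a group holds, was passed by 61 of the 67 members. The 6 that did not pass were Cdh10, Dsg4, Gja4, Gjb1, Cldn9 and Marveld3, each below 0.4 CPM in both group means. Of the 61 tested members 35 were called (57.4%), where 34.1% of all tested genes were called in either direction. The NaCl group was higher for 20 members (32.8%, against 16.9% of all genes called higher) and lower for 15 (24.6%, against 17.2% of all genes called lower). A call together with at least a 2-fold change was found in 10 of the 61 tested members and in 449 of 14024 genes (3.2%). Of those members, Cdh1, Cdh15, Cdh17, Cdh23 and Gja5 averaged under 1 CPM over all libraries. In 33 of the 61 tested members, 19 higher and 14 lower, the highest library of one group lay below the lowest of the other. The same held for 4686 of all 14024 tested genes (33.4%). The median log2 fold change of the tested members was −0.03, and that of all genes was 0.00287. Their median absolute log2 fold change was 0.33, against 0.14 over all genes.

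Every junction class had members that rose and members that fell, where 16.9% of all tested genes were called higher and 17.2% lower. Among 18 tested tight junction genes 5 rose and 6 fell (median log2 fold change −0.11). Of 20 tested adherens junction genes 9 rose and 5 fell (median 0.09). Desmosome genes had 2 of 8 rising and 1 falling (median −0.05), and gap junction genes had 2 of 8 rising and 2 falling (median −0.13). Polarity genes had 2 of 6 rising and 1 falling. Differences between the classes were not tested.

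**Figure D1:**
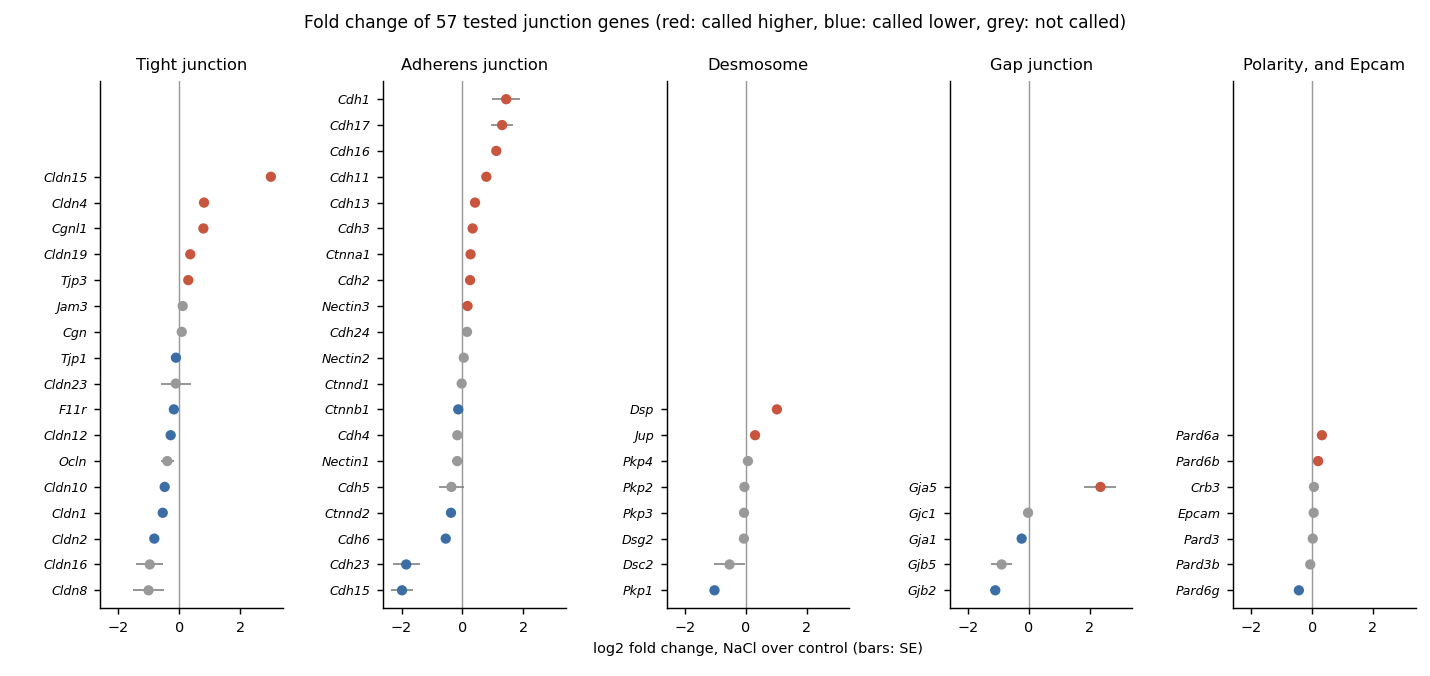
Log2 fold change (NaCl over control) of 57 tested junction genes, ordered within each class, with bars for the standard error and colour for the call at an adjusted p-value under 0.05 (red higher, blue lower, grey not called). Cldn15 stands at 3.01, and each junction class holds genes called higher and genes called lower.

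Claudins held both the highest and the lowest fold change among tested tight junction genes. The table listed 11 claudins, of which 10 were tested, 3 rose and 4 fell. Cldn15, Cldn4 and Cldn19 rose. Cldn2, Cldn1, Cldn10 and Cldn12 fell. Cldn16, Cldn8 and Cldn23, each under 1 CPM, were not called, with log2 fold changes of −0.97, −1.01 and −0.12 and adjusted p-values of 0.107, 0.149 and 0.881.

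Stretches of DNA just before the transcription start are shown for tight junction genes with large called changes: the cation-pore claudins Cldn15 (up) and Cldn2 (down), Cldn4 (up) and the plaque gene Cgnl1 (up). All are in GRCm38 with RefSeq starts, read 5′ to 3′ on the gene's strand and ending at the base before the start, except that 25 bases next to the Cldn15 start, which GENCODE places in an exon of another transcript, were left out. Capitals mark CACCTG, the E-box that Snai and Zeb repressors bind.
Cldn15: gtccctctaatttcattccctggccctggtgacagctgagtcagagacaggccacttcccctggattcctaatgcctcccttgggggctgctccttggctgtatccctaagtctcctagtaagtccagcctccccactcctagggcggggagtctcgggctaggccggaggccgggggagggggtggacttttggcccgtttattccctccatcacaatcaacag
Cldn2: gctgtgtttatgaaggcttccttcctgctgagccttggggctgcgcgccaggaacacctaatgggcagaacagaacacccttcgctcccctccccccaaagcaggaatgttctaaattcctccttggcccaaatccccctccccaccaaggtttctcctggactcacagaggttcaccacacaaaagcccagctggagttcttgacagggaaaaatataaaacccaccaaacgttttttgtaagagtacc
Cldn4: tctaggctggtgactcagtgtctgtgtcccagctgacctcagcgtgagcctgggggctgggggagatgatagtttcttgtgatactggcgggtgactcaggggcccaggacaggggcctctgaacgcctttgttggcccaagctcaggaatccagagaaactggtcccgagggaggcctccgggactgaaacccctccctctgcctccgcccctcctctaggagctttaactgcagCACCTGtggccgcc
Cgnl1: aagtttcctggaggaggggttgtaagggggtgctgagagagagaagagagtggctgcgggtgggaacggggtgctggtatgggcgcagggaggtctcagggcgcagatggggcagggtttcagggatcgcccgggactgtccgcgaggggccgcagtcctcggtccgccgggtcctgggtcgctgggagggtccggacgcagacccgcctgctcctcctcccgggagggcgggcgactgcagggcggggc

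The Cldn15 stretch is chr5:136967619-136967843 on the + strand, inside the GENCODE gene and in the first intron of an annotated transcript. It is 59.6% G+C. The Cldn2 stretch is chrX:139800558-139800807 (+), overlaps no annotated exon, is 52% G+C and holds TATAAA once. The Cldn4 stretch is chr5:134946935-134947184 (−), 62% G+C, with its CACCTG beginning 14 bases before the start. Cgnl1 has the most G+C-rich of the 4, at 70.8% with 20 CpG pairs, at chr9:71771603-71771852 (−).

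The following 3 motifs were searched on both strands in windows of 250 bases before to 50 bases after the start, for the 39 members with an entry, which have 54 windows. TGGAAA, the core of the tonicity element bound by Nfat5, was in 6 of the 54 (11.1%) and in 21.4% of 32851 windows of that length over all genes. The gene list was Cldn19, Cldn2, Ctnnb1, Gjb1 and Tjp3, and the Cldn2 match lies 8 bases after the start, outside the stretch printed above. CACCTG was in 17 of 54 (31.5%) against 20.2% over all genes. Split by call, it was in 6 of 14 windows of members that rose, 2 of 17 of members that fell and 8 of 17 of tested members that were not called. AACCNGTT, the Grainyhead-like (Grhl) site, was in 1 window, that of Cgn (1.85%, against 2.09%). The median G+C content of the 250 bases before the start was 61.2% for the members' windows and 52.4% over all. The members' windows thus also differ from the rest in base composition on that side of the start. A match is a description of these letters only.

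Cldn15 had the highest fold change of all tested members. Its protein forms pores for sodium and other cations and is best known from intestine. Cldn15 (ENSMUSG00000001739, chr5:136966616-136975858) was at 1.49, 1.30, 1.38 and 1.25 CPM in the control libraries and at 12.2, 12.0, 11.2 and 8.43 CPM in the NaCl libraries. Every NaCl library was above every control library by a wide gap. The mean went from 1.36 ± 0.102 to 10.9 ± 1.74 CPM (SD, n = 4 each), an 8.04-fold rise (log2 3.01, SE 0.14, adjusted p = 1.46e-10).

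Cldn4, an anion-selective or barrier-forming claudin of the collecting duct, also rose. It lies on the same chromosome, at chr5:134945119-134946934, as a gene with a single exon block. Cldn4 was at 39.7, 40.5, 46.2 and 49.6 CPM in control and 72.9, 75.8, 75.7 and 84.7 CPM in NaCl libraries, with no overlap. The log2 fold change was 0.81 (SE 0.070, adjusted p = 1.24e-06). Cldn19, which partners Cldn16 in the cation pathway of the thick ascending limb, was the most abundant claudin per kilobase of exon. Its values were 286, 309, 334 and 347 CPM in control and 420, 392, 400 and 426 CPM in NaCl libraries. All NaCl values were higher, and the log2 fold change was 0.36 (SE 0.053, adjusted p = 1.60e-04).

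Cldn2, the water- and cation-permeable claudin of leaky epithelia such as the proximal tubule, fell. It was at 41.3, 46.1, 49.5 and 52.6 CPM in control and 22.6, 26.9, 25.6 and 31.9 CPM in NaCl libraries. The groups did not overlap, and the log2 fold change was −0.82 (SE 0.10, adjusted p = 9.38e-05). The barrier-forming Cldn1 was at 30.8, 32.3, 34.99 and 35.2 CPM in control and 19.3, 20.3, 26.5 and 25.2 CPM in NaCl libraries. It was lower in each NaCl library than in any control library (log2 fold change −0.54, SE 0.094, adjusted p = 6.06e-04). Cldn10, whose splice forms make anion or cation pores, averaged 106 ± 9.90 CPM in control and 75.8 ± 7.82 CPM in NaCl libraries (SD, n = 4 each, log2 −0.48, adjusted p = 0.00110), and gene counts do not separate these forms. Cldn12 averaged 79.8 and 65.5 CPM in the control and NaCl groups (log2 −0.28, adjusted p = 1.15e-04).

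**Figure D2:**
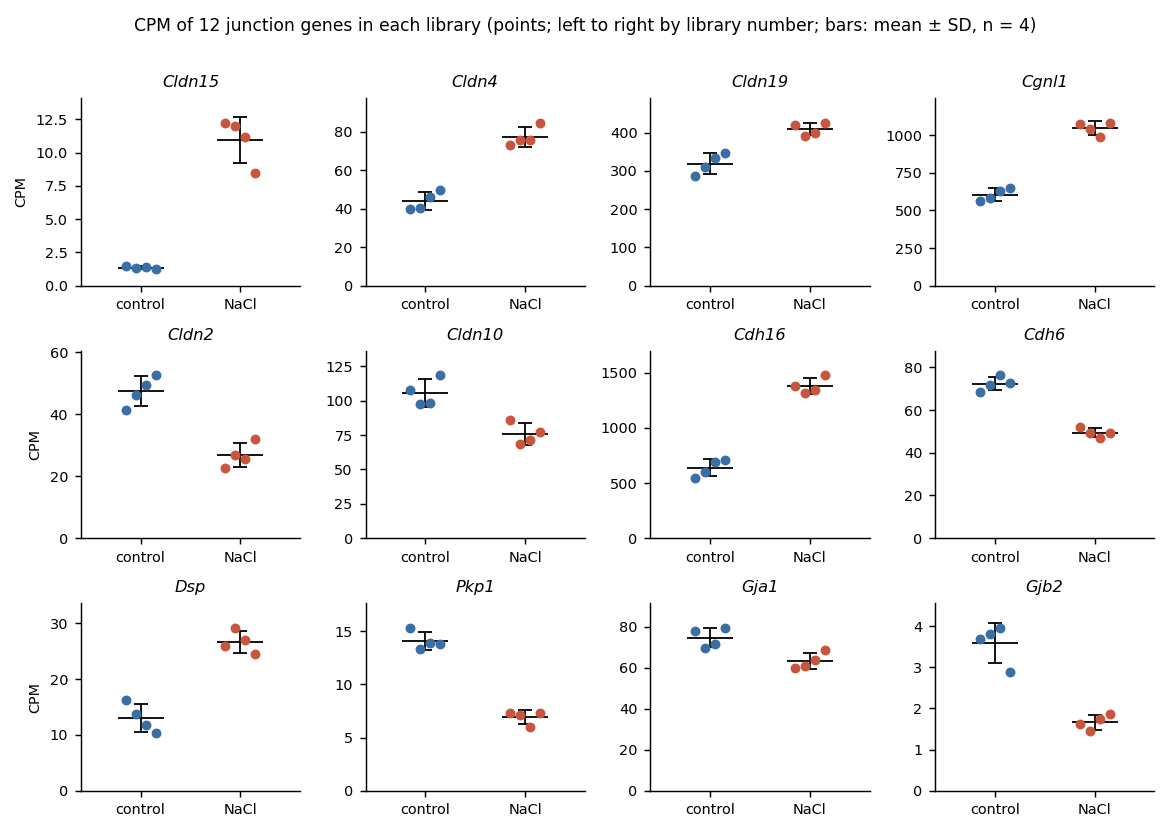
CPM in each of the 8 libraries for 12 junction genes, each on its own linear axis from 0, with points for libraries in order of library number and bars for the mean and SD (n = 4). The NaCl points of Cldn15 lie between 8.43 and 12.2 CPM and the control points between 1.25 and 1.49 CPM.

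Because CPM grows with transcript length, levels of different genes were compared as CPM per kilobase of annotated exon. On that scale the summed claudin level averaged 182 ± 13.3 without added NaCl and 202 ± 7.70 with it (SD, n = 4 each), and the groups overlapped. Within this sum the mixture shifted. Cldn19 went from 41.2% to 47.6% of the claudin total and Cldn4 from 13.3% to 21.1%. Cldn10 went from 22.5% to 14.5%, Cldn12 from 10.4% to 7.68%, Cldn2 from 7.84% to 3.98% and Cldn1 from 3.80% to 2.33%. Cldn15 went from 0.354% to 2.57%, so the claudin with the highest fold change remained a small share of the family. For each of these 7 claudins, which are the called ones, the shares of the control and NaCl libraries did not overlap. The shares of Cldn8, Cldn9, Cldn16 and Cldn23 did overlap. Shares of one sum depend on each other and on the levels above, so they are not separate results.

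**Figure D3:**
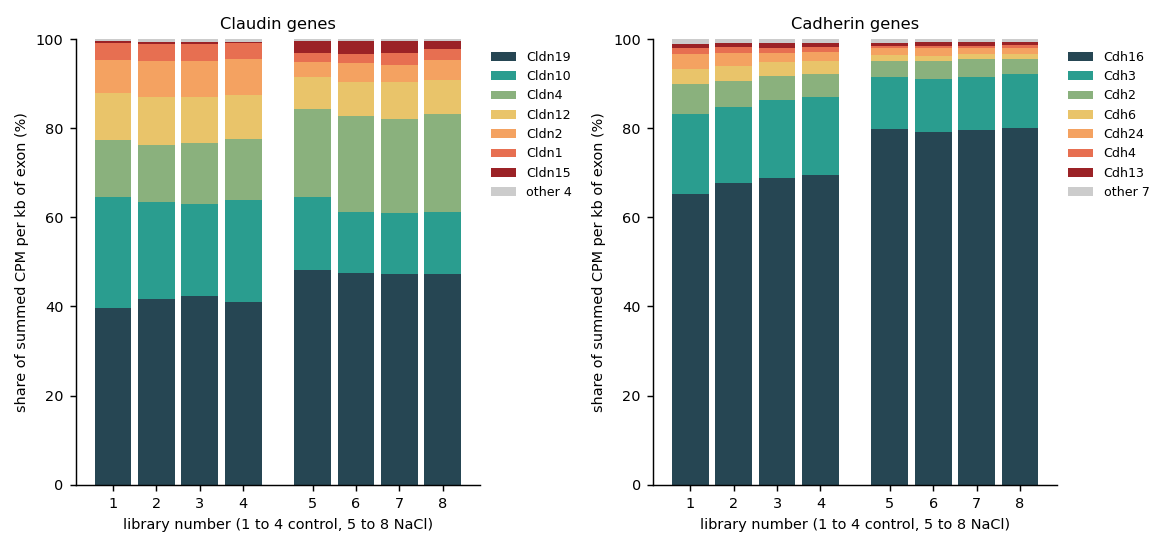
Share in percent of each family's summed CPM per kilobase of exon taken by its members, as a stacked bar per library (1 to 4 control, 5 to 8 NaCl), for claudins and cadherins, with the scarcest members joined as other. On average Cldn10 takes 22.5% of the claudins in control and 14.5% in NaCl libraries, and Cdh16 takes 67.9% and 79.7% of the cadherins.

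The tight junction plaque and the other tight junction proteins had 8 tested genes, of which 2 rose and 2 fell. Cgnl1, encoding paracingulin, a plaque protein related to cingulin, was the most abundant tight junction gene per kilobase under NaCl (134, from 77.2 in control). Cgnl1 (ENSMUSG00000032232, chr9:71626509-71771602) was at 560, 580, 632 and 650 CPM in control and 1077, 1042, 988 and 1084 CPM in NaCl libraries. The gap between the groups exceeded the range within either, and the log2 fold change was 0.79 (SE 0.047, adjusted p = 4.48e-09). Its paralogue Cgn was at 39.1, 42.5, 44.0 and 45.5 CPM in control and 40.9, 47.6, 41.6 and 50.5 CPM in NaCl libraries. These groups overlapped (log2 0.08, 95% interval −0.05 to 0.22, adjusted p = 0.401). Reads of Cgn are uncertain because 34.6% of its transcript sequence is shared with BC021767.

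ZO-1, the main scaffold, is encoded by Tjp1. Tjp1 was at 265, 260, 281 and 275 CPM in control and 235, 248.8, 257 and 260.8 CPM in NaCl libraries. The groups overlapped at the edge, and the small fall was called (log2 −0.11, SE 0.039, adjusted p = 0.0363). That call was lost when control replicate 3 (adjusted p = 0.108) or 4 (0.0679) was left out, and likewise for NaCl replicate 5 (0.120) or 6 (0.0841). Tjp3, at 6.19 CPM in control and 7.59 in NaCl libraries, was called higher (log2 0.29, adjusted p = 0.0406), and the call was lost when any of control replicates 1 (0.117) and 2 (0.114) or NaCl replicates 5 (0.0912), 7 (0.0734) and 8 (0.0796) was left out.

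Of the strand-associated membrane proteins, F11r, encoding JAM-A, fell from 88.7 ± 1.005 to 78.4 ± 1.66 CPM (SD, n = 4 each, log2 −0.18, SE 0.035, adjusted p = 9.40e-04). Occludin was scarce. Ocln was at 1.91, 2.56, 3.75 and 3.15 CPM in control and 1.79, 2.06, 2.25 and 2.50 CPM in NaCl libraries, with overlap (log2 −0.39, 95% interval −0.79 to 0.01, adjusted p = 0.151). It was called without control replicate 1 (log2 −0.55, adjusted p = 0.0356). Jam3 was not called (log2 0.11, adjusted p = 0.555), and 36.2% of its exons overlap Gm48796 on the opposite strand. Marveld3 did not pass the filter.

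Of 13 tested cadherins 7 were called higher and 3 lower, where 16.9% of all genes were called higher and 17.2% lower, and the difference between the directions was not tested. With the library number as a linear term in the fit, Cdh11, Cdh16, Cdh2 and Cdh24 were higher and Cdh15 and Cdh6 lower. Cdh16 is kidney-specific cadherin, a non-classical cadherin of the basolateral membrane of tubule cells. Cdh16 (ENSMUSG00000031881, chr8:104601911-104624396) was at 549, 602, 694 and 713 CPM in control and 1381, 1319, 1342 and 1477 CPM in NaCl libraries. The lowest NaCl library was far above the highest control library. Its mean went from 640 ± 77.3 to 1380 ± 69.8 CPM (SD, n = 4 each), a 2.16-fold rise (log2 1.11, SE 0.082, adjusted p = 9.42e-06). Per kilobase it was the most abundant of all junction genes in both groups, at 169 in control and 364 in NaCl libraries.

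E-cadherin, the classical cadherin that defines most epithelia, was close to absent. Cdh1 drew only 9, 14, 2 and 9 counts from the control libraries, and 22, 30, 13 and 21 from those with NaCl. The groups overlapped in these counts, and all values were below 1 CPM. The rise was called (log2 1.43, SE 0.47, adjusted p = 0.0254), and it was lost when control replicate 1 (adjusted p = 0.054) or 3 (0.072) was left out, and likewise for NaCl replicate 5 (0.0584) or 6 (0.0877). Other classical cadherins were more abundant, among them P-cadherin (Cdh3), N-cadherin (Cdh2), K-cadherin (Cdh6) and OB-cadherin (Cdh11). Cdh3 was at 174, 174, 203 and 208 CPM in control and 232, 230, 235 and 260 CPM in NaCl libraries, without overlap (log2 0.33, adjusted p = 0.00187).

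Cdh2 was at 118, 114, 116 and 114 CPM in control and 134, 138, 139 and 136 CPM in NaCl libraries. Both groups were tight and separate (log2 0.25, SE 0.033, adjusted p = 1.88e-05). Cdh6, a cadherin of the developing nephron, moved the other way, from 68.6, 71.9, 76.3 and 72.5 CPM to 52.0, 49.3, 46.9 and 49.5 CPM. All NaCl values were lower (log2 −0.55, SE 0.046, adjusted p = 1.01e-07). Cdh11, typical of mesenchymal cells, was at 14.7, 10.1, 14.0 and 11.3 CPM in control and 23.8, 20.1, 21.2 and 21.4 CPM in NaCl libraries, again without overlap (log2 0.78, SE 0.10, adjusted p = 3.56e-05). Of the fibroblast markers measured beside it, Pdgfrb went from 37.5 to 61.1 CPM and Col1a1 from 2492 to 2148 CPM, and their part in the Cdh11 result was not tested.

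Among the remaining cadherins Cdh13 (T-cadherin, which lacks a cytoplasmic tail) rose from 27.3 to 36.3 CPM (log2 0.41, adjusted p = 0.00179). Cdh17 rose (log2 1.30, adjusted p = 0.0121), and Cdh15 and Cdh23 fell (log2 −1.99 and −1.85, adjusted p = 2.94e-04 and 0.00350), at levels between 0.0476 and 1.42 CPM in every library. Cdh24, Cdh4 and the endothelial Cdh5 were not called, with log2 fold changes of 0.15, −0.17 and −0.37. Summed per kilobase, the cadherins went from 248 ± 23.8 to 457 ± 21.4 (SD, n = 4 each), a ratio of 1.84. Cdh16 took 67.9% of this sum in control and 79.7% in NaCl libraries, while Cdh3 went from 17.5% to 11.9%, Cdh2 from 5.81% to 3.73% and Cdh6 from 3.25% to 1.20%. Cdh3 and Cdh2 thus rose in level while their share of the family was lower.

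Catenins link cadherins to actin, and beta-catenin also carries Wnt signals. Ctnna1, encoding alpha-catenin, was at 656, 648, 668 and 695 CPM in control and 791, 796, 798 and 819 CPM in NaCl libraries. Every NaCl library was higher (log2 0.26, SE 0.032, adjusted p = 8.75e-06). Ctnnb1, encoding beta-catenin, was at 725, 727, 735 and 750 CPM in control and 644, 663, 664 and 694 CPM in NaCl libraries. Each NaCl value was lower (log2 −0.14, SE 0.032, adjusted p = 0.00292). Part of the Ctnnb1 count is uncertain, since 14.6% of its exons overlap Ulk4 on the opposite strand. Per kilobase these were the next most abundant adherens genes after Cdh16, with Ctnna1 at 104 and 125 and Ctnnb1 at 141 and 128 in control and NaCl libraries.

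Of the p120 family, Ctnnd1 was not called (log2 −0.03, adjusted p = 0.584), and 61.2% of its exons overlap Gm28635 on the same strand. Ctnnd2 fell from 7.604 to 5.86 CPM (log2 −0.38, adjusted p = 0.0134). Without NaCl replicate 6 its adjusted p was 0.0504. Nectins, immunoglobulin-like adhesion proteins of the same junction, had 1 called gene of 3. Nectin3 went from 57.2 to 64.1 CPM with overlapping libraries (log2 0.16, adjusted p = 0.0119). Nectin1 and Nectin2 had log2 fold changes of −0.17 and 0.04 and were not called.

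**Figure D4:**
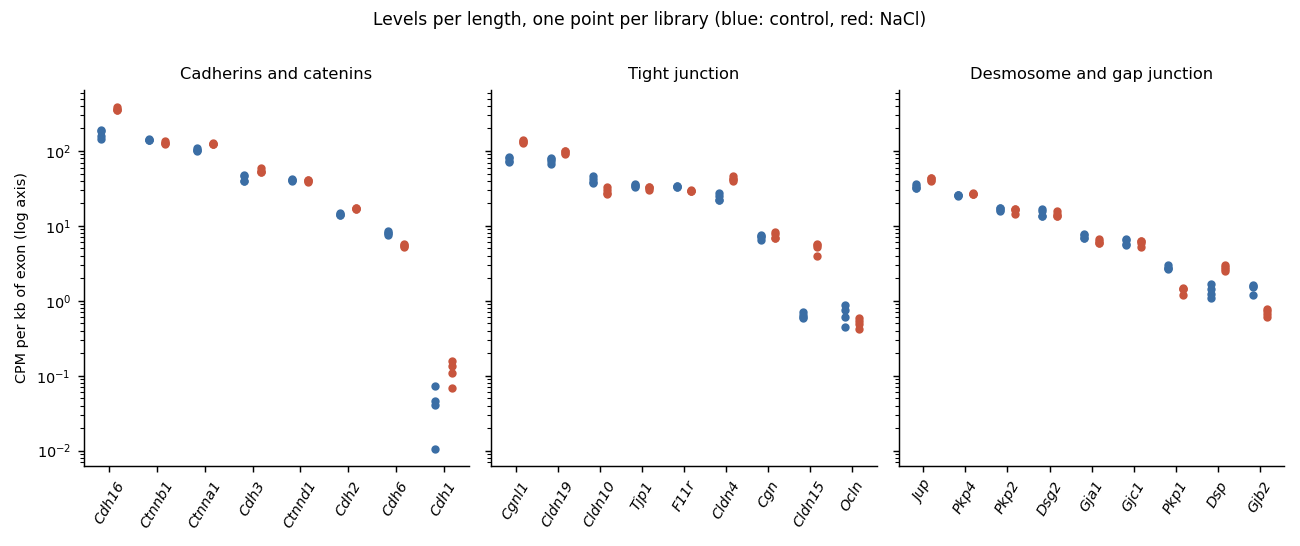
Level of selected junction genes in CPM per kilobase of annotated exon on a log axis, in panels by class, with one point per library (blue control, red NaCl). Cdh16 lies highest, with group means of 169 and 364, and Cdh1 lowest, with 0.0427 and 0.117.

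Of 8 tested desmosome genes 2 rose, 1 fell and 5 were not called, so that 37.5% were called, near the 34.1% of all genes. Desmoplakin, encoded by Dsp, is the cytoplasmic link from the desmosome to keratin filaments. Dsp (chr13:38151294-38198577) was at 16.2, 13.8, 11.8 and 10.4 CPM in control and 25.9, 29.2, 27.0 and 24.5 CPM in NaCl libraries. All NaCl libraries were higher (log2 1.02, SE 0.11, adjusted p = 1.71e-05). Plakophilin 1, encoded by Pkp1, binds desmoplakin and gathers desmosomal cadherins. Pkp1 (chr1:135871395-135919207) was at 15.3, 13.3, 13.9 and 13.8 CPM in control and 7.34, 7.17, 5.96 and 7.26 CPM in NaCl libraries. Its fall was nearly the mirror of the Dsp rise in size (log2 −1.02, SE 0.091, adjusted p = 2.29e-07).

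Plakoglobin (Jup), which serves both desmosomes and adherens junctions, was at 209, 208, 217 and 231 CPM in control and 260, 276, 258 and 276 CPM in NaCl libraries. The groups were separate (log2 0.31, SE 0.040, adjusted p = 1.58e-05). Pkp4 was at 146, 144, 146 and 147 CPM in control and 153, 152, 153 and 154 CPM in NaCl libraries. Those values did not overlap, yet the difference was small and was not called (log2 0.07, adjusted p = 0.0800). Pkp2, Pkp3 and the desmosomal cadherin Dsg2 had log2 fold changes of −0.04, −0.06 and −0.06 with adjusted p-values of 0.589, 0.838 and 0.586. Dsc2 was at 0.376 and 0.256 CPM and was not called, and Dsg4 was not tested. Dsg2, at 123 and 118 CPM, was therefore the one desmosomal cadherin present above 1 CPM.

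Gap junction genes were led by a few connexins. Connexin 43 (Gja1), the most widely expressed connexin, was at 77.9, 69.8, 71.5 and 79.6 CPM in control and 60.01, 60.9, 63.8 and 68.5 CPM in NaCl libraries. No NaCl library reached a control library (log2 −0.24, SE 0.052, adjusted p = 0.00195). Gjb2, encoding connexin 26, was at 3.69, 3.82, 3.96 and 2.88 CPM in control and 1.62, 1.44, 1.75 and 1.86 CPM in NaCl libraries. That fall was the steepest among called connexins (log2 −1.10, SE 0.17, adjusted p = 7.44e-05).

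Connexin 40 (Gja5), known from blood vessels and heart, drew 3, 2, 5 and 3 counts from the control libraries, and 22, 11, 14 and 16 from those with NaCl. The groups were separate at very low level (log2 2.35, 95% interval 1.32 to 3.38, adjusted p = 0.00228), and 27.7% of its transcript sequence is shared with Gpr89 and Zfp697, so these reads are uncertain. Gjb5 and Gjc1 were not called (log2 −0.90 and −0.03, adjusted p = 0.0524 and 0.788). DESeq2, limma-voom and limma on the deposited values each called 3 connexins lower in place of the 2 here. Per kilobase, Gja1 went from 27.8% to 21.8% of the connexin sum. With the longest transcript in place of all annotated exons its share was 46.8% and 39.4%, so the size of the share depends on the length used and its direction does not.

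Some junction genes lie close together. On chromosome 8 Cdh3 and Cdh1 are 46.05 kb apart, and both were called higher, at levels of 239 and 0.535 CPM under NaCl. Cldn1, which fell, and Cldn16, which was not called, are 91.3 kb apart on chromosome 16.

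Polarity proteins place the tight junction at the apical border. Pard6b, the Par6 form with the highest level per kilobase, was at 65.4, 67.5, 72.6 and 76.8 CPM in control and 82.3, 77.0, 80.5 and 83.5 CPM in NaCl libraries. The NaCl values lay just above the control values (log2 0.20, adjusted p = 0.00562). Pard6a rose (log2 0.32, adjusted p = 0.00883) and Pard6g fell (log2 −0.44, adjusted p = 0.00666). Pard3 was at 107, 105, 112 and 115 CPM in control and 116, 110, 108 and 111 CPM in NaCl libraries, with full overlap (log2 0.02, adjusted p = 0.733). Crb3, the apical Crumbs protein, was at 28.2, 33.0, 31.9 and 36.6 CPM in control and 33.7, 31.3, 32.1 and 38.0 CPM in NaCl libraries, also overlapping (log2 0.06, adjusted p = 0.606). Pard3b was not called (log2 −0.06).

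Epcam, an epithelial adhesion protein that stabilises claudins, was at 24.9, 24.6, 28.1 and 31.4 CPM in control and 27.2, 26.3, 28.7 and 30.7 CPM in NaCl libraries. The groups overlapped, and the 95% interval of the log2 fold change ran from −0.10 to 0.20 (adjusted p = 0.666). Epcam was thus present in every library, while Cdh1 stayed below 1 CPM and Ocln below 4 CPM in each.

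Summed levels per kilobase gave a second view of the classes, without a test because the members were chosen. Tight junction genes summed to 356 ± 20.2 without added NaCl and 427 ± 13.8 with it (SD, n = 4 each), a ratio of 1.20, with no overlap. Adherens genes went from 571 ± 31.6 to 788 ± 28.8, a ratio of 1.38, also without overlap. Catenins alone had a ratio of 1.02. The sums of desmosome, gap junction and polarity genes overlapped between the groups, with ratios of 1.08, 1.08 and 1.09. With the longest transcript as the length the gap junction ratio was 1.01. Sums of this kind follow their most abundant members, here Cdh16 and Cgnl1.

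Genes that work with junctions but were not members were listed as a comparison, 82 in all. The table held 76 of them, 73 were tested, 9 rose and 14 fell, with a median log2 fold change of −0.01. The 23 called are 31.5% of those tested, near the 34.1% of all genes, so the genes below describe the list and do not set it apart. Among 20 tight junction and polarity scaffolds 4 rose, Mpdz (0.33), Pals1 (0.40), Scrib (0.22) and Arhgef18 (0.29). The 6 that fell were Magi3, Amot, Amotl1, Prkci, Arhgef2 and Ybx3, with log2 fold changes between −0.24 and −0.12. The 3 tricellular genes Lsr, Ildr1 and Ildr2 were not called (log2 0.05, −0.95 and −0.01, adjusted p = 0.631, 0.139 and 0.977). In the adherens belt 3 of 16 rose (Vcl, Ajuba and Epb41l5) and 2 fell (Actn1 and Myh10), and of 7 desmosome partners, which include simple keratins, Perp alone fell (−0.39).

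Of 13 tested transcription factors known to act on epithelial junction genes 10 were not called and 3 fell, Snai1 (−0.37, adjusted p = 0.0380), Zeb2 (−0.20, adjusted p = 0.0171) and Klf4 (−0.24, adjusted p = 0.0276). Grhl2, Hnf4a and Cdx2 were not in the table. Wnk4, a kinase that phosphorylates claudins, fell (−0.14, adjusted p = 0.0181). Among 10 proteases and their inhibitors the matriptase inhibitor Spint2 (0.49, adjusted p = 1.41e-04) and matriptase itself, St14 (0.32, adjusted p = 0.00327), rose, and Mmp14 fell (−0.27, adjusted p = 3.7e-05).

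Library numbers in the labels are 1 to 4 for control and 5 to 8 for NaCl, so they rise with the group, and what they stand for is not given. With that number as a linear term beside the group, 33 of the 61 members were called (54.1%), where 24.1% of all tested genes were called in the same fit. Of these members 13 were higher, against 11.5% of all genes called higher, and 20 were lower, against 12.6% called lower. Of the 35 calls above, 21 stood in the same direction and none in the opposite one. These 21 included Cldn15 (log2 3.56), Cldn4 (0.46), Cldn2 (−1.34), Cldn1 (−0.99), Cgnl1 (0.65), Cdh16 (0.79), Dsp (1.52) and Pkp1 (−0.89). The 14 lost included Cldn10, Cldn19, Tjp3, Cdh1, Cdh3, Cdh13, Cdh17, Cdh23, Ctnnd2, Gja5, Pard6a, Pard6b and Pard6g. Cldn19 had an adjusted p of 0.133 with a log2 fold change of 0.16. A further 12 members were called in that fit and not in the group comparison. Of these 3 were higher, Cdh24 (0.71, adjusted p = 4.42e-04), Jam3 (0.70, adjusted p = 0.0102) and Gjc1 (0.32, adjusted p = 0.0333). The other 9 were lower, Ocln (−1.25, adjusted p = 0.0102), Pkp3 (−0.82, adjusted p = 1.59e-06), Dsg2 (−0.43, adjusted p = 8.60e-06), Epcam (−0.32, adjusted p = 0.0372), Cldn16, Ctnnd1, Nectin2, Pard3b and Pkp2. With the number centred within its group instead, 21 members were higher and 17 lower, and 6030 of all 14024 tested genes were called. Of the 41 members called or named in full, 40 kept their result and Pkp4 gained a call. A centred number does not differ between the groups on average, so that fit cannot take out a drift between them. A drift along the number and an effect of NaCl cannot be fully told apart in this design.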

How the data were processed

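Bulk RNA sequencing of 4 control and 4 NaCl libraries was deposited by the authors as a table of raw counts per gene and a table of normalized signal. The deposited signal is each count over its library's factor (0.864 to 1.145), to within 5.1e-15. The submitters' processing notes name Trim Galore 0.6.7, STAR, DESeq2 1.34.0 and the build mm10. The counting program, strandedness and gene filter are not given in the sources used here, so reads of overlapping or antisense genes cannot be told apart. The lowest gene total was 19.

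Raw counts were analysed with edgeR 4.0.16 in R 4.3.3. The steps were filterByExpr at a minimum count of 10 (1264 genes removed), TMM factors, a robust quasi-likelihood fit on the group and Benjamini-Hochberg adjustment over 14024 genes. The script was checked on simulated counts. Replicate pairs (12) differed with chi-square per degree of freedom between 5.21 and 22.9, so none was a repeat deposit. Totals were 35.29 to 47.57 M counts, and the standard error printed with a fold change gives its precision. The 95% intervals use a normal approximation on that error, so they are somewhat narrower than the quasi-likelihood test implies.

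Members and lists were chosen with earlier results of these data known. Members were named in full when called with an absolute log2 fold change of at least 0.5 and a mean of at least 1 CPM, when among the 2 highest per kilobase in a class, or when on a list of core genes (Tjp1, Ocln, Cgn, Cdh1, Ctnnb1, Ctnna1, Dsp, Jup, Gja1, Pard3, Crb3, Epcam), which gave 26 genes. A few members are not reported here by name and enter only the counts and sums. Others are given by counts, or with values chosen after these were seen. Exon lengths and overlaps came from GENCODE M21 on GRCm38, shared transcript sequence from blastn 2.17.0 (at least 75 bases at 98% identity) and promoter windows from RefSeq on GRCm38.p6. Alternatives were other scaling factors, other filters, DESeq2 1.42.0, limma 3.58.1 on the counts (voom) and on log2 of the deposited values plus 1, stricter thresholds, library number as a covariate and leaving out each library.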

Additional observations from a re-analysis of the deposited data

Results flagged for a closer look

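Each group of 4 libraries was searched for a single library far from the other 3, by the gap to its nearest neighbour over the group's range (Dixon's 95% criterion). Of 92 groups of values 3 were marked, where chance marks about 1 in 20, or 4.6. Pkp1 was at 5.96 CPM in NaCl replicate 7, and the other NaCl libraries lay between 7.17 and 7.34 CPM. Cdh3 was at 259.7 CPM in NaCl replicate 8, against 230.0 to 234.9 CPM in the other 3. Cdh23 was at 0.709 CPM in control replicate 4, against 0.498 to 0.532 CPM in the other control libraries. Pkp1 and Cdh3 were called without those libraries as well.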

How the results depend on the processing

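For 41 members, those called or named in full, 815 refits were made. Direction and side of the threshold were the same in 744, the call was lost in 60 and gained in 3, and the direction reversed in 8. Leaving aside the linear library number and the test against a fold change of 1.5, 707 of 733 were the same, 20 lost the call, 2 gained it and 4 reversed. Other scaling factors changed no call of these 41 genes. A test against a fold change of 1.5 left 6 members higher and 3 lower, with 3 tight junction, 2 adherens, 2 gap junction and 0 polarity genes, and 328 genes in all. With library number 1 to 8 as a linear covariate, 13 members were higher, with 6 desmosome and 1 polarity genes called, and Epcam (−0.32), Crb3 (−0.27), Pard3 (−0.01425) and Cgn (−0.21) reversed sign. At an adjusted p under 0.01, 3145 genes were called against 4789 at 0.05. Leaving out each library gave 18 to 20 members higher and 13 to 17 lower. Across the same refits the log2 fold change of Crb3 ran from −0.005068 to 0.1205 and that of Pard3 from −0.003483 to 0.04105, each with both signs. With the longest transcript as the length the gap junction ratio per kilobase was 1.008 instead of 1.083. No paired analysis was possible because the library numbers 1 to 8 are not shared between the groups. Depth limits Cdh1, Gja5 and other genes under 1 CPM, where few counts carry each value.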
